A study of Mus musculus with 6 samples.

Results

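The 31 genes described here encode enzymes and regulators of cholesterol and lipid synthesis. They were chosen by name, from textbook roles, with earlier results of these data known. They were matched exactly to the gene symbols of the array's annotation. Of the 31 genes, 30 had at least 1 feature with that single symbol, which gave 33 features among 34760 on the array, and all 33 passed the filter on low values. Acat2, which encodes a cytosolic acetoacetyl-CoA thiolase, had none and was not analysed here. Idi1, Fdft1 and Acaca had 2 features each.

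Cells make cholesterol from acetyl-CoA. Units of acetyl-CoA are condensed and reduced to mevalonate, which is turned into isoprenoids, and these are joined to squalene, folded into lanosterol and trimmed to cholesterol. SREBP proteins, encoded by Srebf1 and Srebf2, switch on most of these genes when sterols in the endoplasmic reticulum run low. SCAP escorts them to the Golgi for cleavage and INSIG proteins hold SCAP back when sterols are plentiful. Proliferating cells such as embryonic stem cells need new membrane and keep these genes active.

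Transcript levels were measured on 6 single-colour arrays of mouse embryonic stem cells of strain C57Bl/6. All 6 samples, controls included, carried the stably expressed chimeric receptor GRgp-Y118F, whose promoter and whose origin from 1 clone or a pool are not given in the sources used here. The 3 groups of 2 arrays were an untreated control, cells given granulocyte colony-stimulating factor (GCSF) for 1 h, and cells given leukaemia inhibitory factor (LIF) together with the MEK inhibitor PD0325901 at 1 uM for 1 h, labelled LIF/PD. The treated cells had been without serum for 6 h, and whether the control had been as well is not stated. The series was made to find genes downstream of the transcription factor STAT3. Whether a group's arrays are of separate cultures is not stated, so the p-values reflect variation among these 6 arrays alone and that variation could be technical.

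Values were read as log2 intensity. Differences and standard errors (SE, n = 2 arrays per group) came from limma fitted to 16912 features, and a gene was said to rise or fall only at a Benjamini-Hochberg adjusted p under 0.05 over all of them. An SE of a member's difference lay between 0.03 and 0.17 with a median of 0.04, and the 95% interval reached 0.10 to either side at the median. On this scale 0.26 is a 1.2-fold difference.

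The arrays correlated at 0.997 to 0.998 within groups and at 0.995 to 0.998 between them. The STAT3 feedback gene Socs3 rose under both treatments, by 3.13 ± 0.07 under GCSF and 2.62 ± 0.07 under LIF/PD. The ERK target Dusp6 fell by 1.56 ± 0.04 in the arrays labelled GCSF and lay 0.03 ± 0.04 from control in those labelled LIF/PD. Spry4 and Egr1, also ERK targets, fell by 1.83 ± 0.06 and 1.49 ± 0.08 in the arrays labelled GCSF. In those labelled LIF/PD they differed by 0.05 ± 0.06 and -0.18 ± 0.08, and neither passed (limma adjusted p = 0.937 and 0.752). These values go against the label of the MEK inhibitor. Every direction below therefore holds for the arrays that carry the label. All 5 stem cell markers, among them Pou5f1 and Nanog, passed the filter, as did 6 of 7 fibroblast, 4 of 7 primitive endoderm and 4 of 5 trophoblast markers. Of these, Col3a1 of the fibroblast list and Tfap2c of the trophoblast list rose under GCSF. The mean of the 7 fibroblast markers was 9.35 to 9.40 in the control arrays, 9.38 to 9.40 under GCSF and 9.34 to 9.37 under LIF/PD. The mean of the 5 trophoblast markers was 7.72 to 7.75 in control, 7.79 to 7.86 under GCSF and 7.80 to 7.84 under LIF/PD, and that of the 7 primitive endoderm markers 7.05 to 7.09 over all arrays. The part of other cells in the results below was not tested, and in bulk samples a change in their number and a change per cell cannot be told apart.

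The sequences just upstream of 4 of the genes are given first. Each holds at least 1 CCAAT, the letters bound by NF-Y, a partner of SREBP. CCAAT does not set these 4 genes apart, since it stood in the windows of 20 of the 25 members searched. Of the letters marked for SREBP itself, TCACNCCAC was found only in the stretch of Hmgcs1 and CACGTG only in that of Insig1. Other sites that SREBP may bind were not searched for. The sequences are those of Hmgcs1 and Msmo1, the members that rose under GCSF. Those of Cyp51 and Insig1, an enzyme and a regulator described with them, are added. Each is the 250 bases before the annotated start, from RefSeq on GRCm38.p6, written 5′ to 3′ on the strand of the gene. Capitals mark TCACNCCAC, a core of the sterol regulatory element, CACGTG, the E-box, and CCAAT, the NF-Y box, each on either strand, so that CCAAT also appears as ATTGG.
Hmgcs1: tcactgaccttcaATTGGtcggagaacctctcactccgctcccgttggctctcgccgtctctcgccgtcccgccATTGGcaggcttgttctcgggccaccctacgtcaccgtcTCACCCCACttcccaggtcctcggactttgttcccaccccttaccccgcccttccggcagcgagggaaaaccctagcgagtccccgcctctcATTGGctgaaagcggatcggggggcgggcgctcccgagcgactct
Msmo1: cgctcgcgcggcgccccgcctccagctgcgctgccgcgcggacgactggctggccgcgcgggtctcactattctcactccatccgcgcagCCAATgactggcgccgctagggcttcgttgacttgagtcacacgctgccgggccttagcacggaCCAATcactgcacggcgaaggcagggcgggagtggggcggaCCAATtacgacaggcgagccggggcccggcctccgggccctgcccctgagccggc
Cyp51: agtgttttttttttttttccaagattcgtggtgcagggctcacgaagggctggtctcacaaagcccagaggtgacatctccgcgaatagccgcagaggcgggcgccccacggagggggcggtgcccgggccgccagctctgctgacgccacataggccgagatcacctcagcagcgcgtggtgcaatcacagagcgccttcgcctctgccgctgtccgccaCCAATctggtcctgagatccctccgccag
Insig1: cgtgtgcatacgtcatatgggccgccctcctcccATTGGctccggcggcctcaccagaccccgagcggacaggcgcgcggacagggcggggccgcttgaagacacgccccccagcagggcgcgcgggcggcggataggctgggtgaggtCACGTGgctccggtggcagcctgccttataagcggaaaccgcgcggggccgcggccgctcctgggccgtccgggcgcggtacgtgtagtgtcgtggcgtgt
They lie at chr13:119690101-119690350 on the plus strand, chr8:64733579-64733828 on the minus strand, chr5:4104698-4104947 on the minus strand and chr5:28071162-28071411 on the plus strand. The sterol element of Hmgcs1 covers bases 137 to 129 upstream of the start.

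In the RefSeq promoter table, 25 of the 31 members had an entry. Windows of 300 bases, 250 before and 50 after a start, were searched for 5 motifs on both strands, and no motif contains another. TCACNCCAC stood in the window of 1 member, Hmgcs1, against 1.44% of all 27025 genes in the table. CCAAT stood in the windows of 20 members, or 80% of them against 41.1% of all genes, and the SP1 box GGGCGG also in 20, against 38.2%. CACGTG stood in those of Dhcr7, Hsd17b7, Insig1, Sc5d and Scap, or 20% of members against 8.09%. TTCCNGGAA, a STAT site, stood in 0 of 25 against 1.35% of all genes. These are matches of letters in short windows. They do not show binding, and the absence of a match says only that these letters are not in the window.

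The comparison of GCSF with control asks which of these genes differ from control in the arrays labelled GCSF. Of 33 member features 2 rose, those of Hmgcs1 and Msmo1, and 0 fell. Over all tested features 0.804% rose and 0.367% fell. Hmgcs1 encodes the cytosolic synthase that makes HMG-CoA ahead of mevalonate, and Msmo1 the oxidase that starts removing the methyl groups at carbon C-4 of the sterol ring. Both rises were small, 1.15-fold and 1.17-fold. At an unadjusted p under 0.05 there were 6 member features, or 18.2%, against 12.1% of all features. All 6 lay above control, while over all tested features 1191 at this threshold lay above and 858 below. The 6 include Idi1 feature 10482762 and Acaca feature 10394538, whose identifiers ran among those of another chromosome, as described below. The other feature of each of these genes was not among the 6. Both GCSF arrays were above both control arrays for 11 member features, or 33.3% against 23.7% of all, and below them for 3, or 9.09% against 18.2%. After quantile normalization these counts were 11 and 6, against 19.5% and 22.7% of all features. After median centring they were 11 and 5, against 23.6% and 17.2%. The median difference of the 30 genes was 0.03, beside 0.01 for all 12949 tested genes, and 18 of the 30 lay above 0, or 60% against 55.3% of all tested genes.

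Hmgcs1 measured 10.88 and 10.89 on the control arrays, 11.09 and 11.09 under GCSF, and 10.96 and 10.91 under LIF/PD. The GCSF arrays stood apart above the other 4. The difference from control was 0.21 ± 0.03 (adjusted p = 0.0316). Msmo1 measured 10.38 and 10.37 in control, 10.64 and 10.56 under GCSF, and 10.51 and 10.47 under LIF/PD. Here the 3 groups did not overlap, with LIF/PD between the others. Msmo1 rose by 0.22 ± 0.04 under GCSF (adjusted p = 0.0432). The sizes of both rises varied little with the processing, from 0.20 to 0.22 for Hmgcs1 and 0.18 to 0.26 for Msmo1, but the calls did not hold throughout. Of 17 alternatives 6 kept the call of Hmgcs1 and 7 that of Msmo1. Leaving out any 1 of the 6 arrays ended the call of Hmgcs1, with adjusted p from 0.0655 to 0.256, and leaving out any but GCSF replicate 2 ended that of Msmo1, with adjusted p from 0.0424 to 0.263 over the 6.

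**Figure D1:**
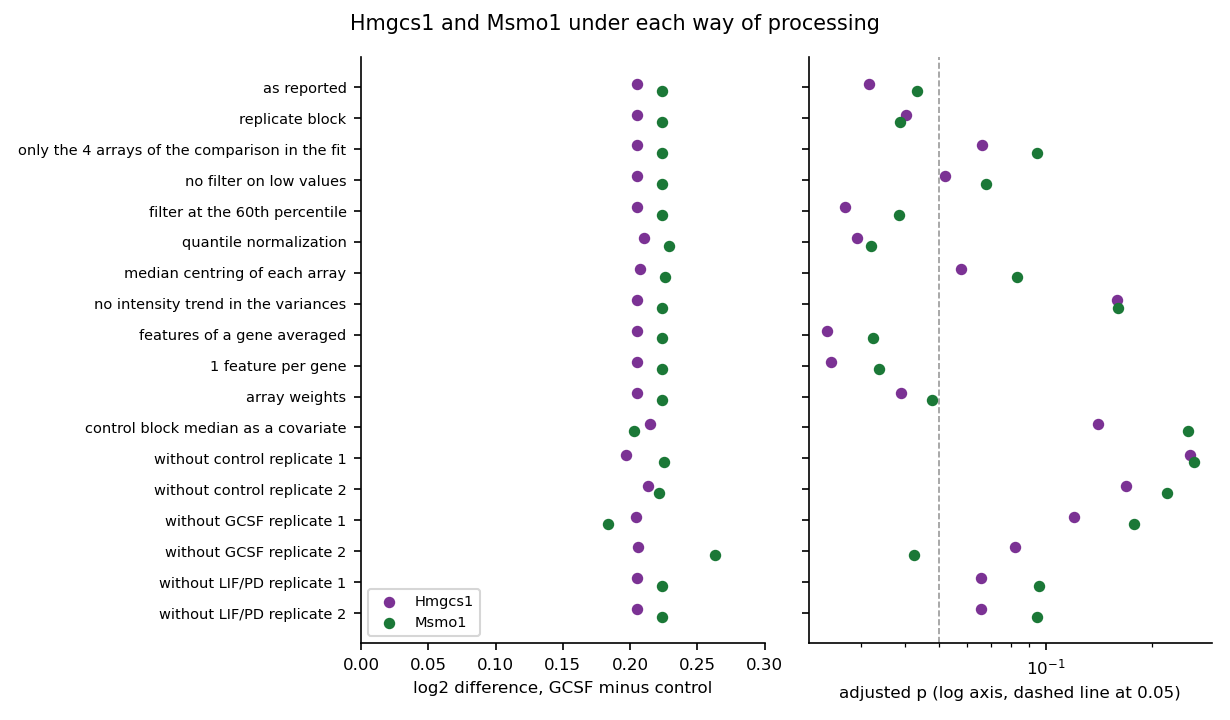
The left panel plots the log2 difference of GCSF from control for Hmgcs1 and Msmo1 under the reported fit and 17 alternatives, and the right panel the limma adjusted p on a log axis. The differences stay between 0.18 and 0.26, while the adjusted p values fall on both sides of the dashed line at 0.05.

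No other enzyme gene of the mevalonate and isoprenoid steps passed. Idi1, whose isomerase makes the reactive isoprenoid unit, measured 10.32 and 10.33 in control and 10.59 and 10.44 under GCSF on feature 10482762. It was 10.43 and 10.37 under LIF/PD there. Both GCSF arrays lay above the other 4 on this feature, by 0.19 ± 0.05, which did not pass (adjusted p = 0.179). On feature 10403413 the values were 9.39 and 9.47 in control, 9.75 and 9.71 under GCSF, and 10.03 and 9.37 under LIF/PD. The LIF/PD arrays were 0.66 apart there, the widest gap between arrays of a group among all member features. The GCSF difference of 0.30 ± 0.17 did not pass (adjusted p = 0.523), but it did when only the 4 control and GCSF arrays were fitted (0.0487) and without LIF/PD replicate 2 (0.0462).

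Which of the Idi1 features reports the gene is uncertain. Of the 33 member features 31 had identifiers that run among those of genes on the member's own chromosome. Feature 10482762, though annotated to Idi1 of chromosome 13, ran among features of chromosome 2, and feature 10394538 of Acaca, a gene of chromosome 11, among those of chromosome 12. What these features measure was not tested.

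Mvk, the mevalonate kinase gene, lay below control on both GCSF arrays, at 9.05 and 9.11 against 9.13 and 9.23, a difference of -0.10 ± 0.05 (adjusted p = 0.495). Pmvk, for the next kinase, and Mvd, for the decarboxylase after it, differed by 0.04 ± 0.08 and -0.02 ± 0.05. Fdps, for the synthase of farnesyl diphosphate, measured 10.91 and 10.87 in control, 10.77 and 10.92 under GCSF, and 10.90 and 10.93 under LIF/PD. Its GCSF arrays spanned the control values, and the difference was -0.04 ± 0.05. In this branch only Hmgcs1, at its start, thus passed. The means of Mvk, Mvd and Fdps lay below control, and those of Pmvk and both Idi1 features above it. The GCSF arrays of Mvd, Fdps and Pmvk overlapped control.

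**Figure D2:**
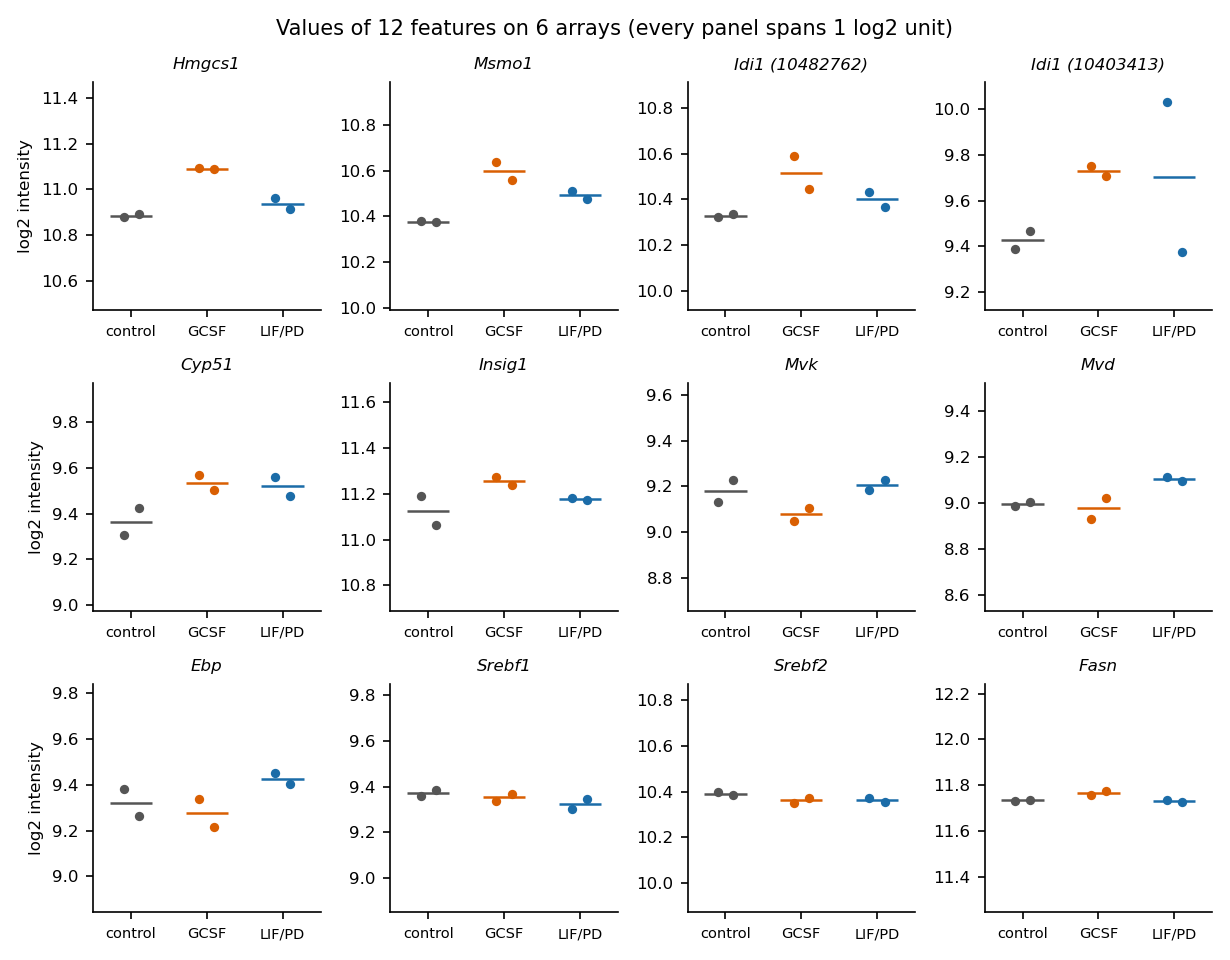
Each panel plots the log2 intensity of 1 feature on the 6 arrays, with points for arrays and a bar for the group mean, and every panel spans 1 log2 unit. The GCSF arrays of Hmgcs1 and Msmo1 stand above the other 4, the LIF/PD arrays of Idi1 feature 10403413 lie 0.66 apart, and the 6 values of Srebf1 run from 9.30 to 9.39.

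From squalene to cholesterol, the gene next to Msmo1 in size of difference was Cyp51, which encodes the lanosterol demethylase that acts ahead of it. Cyp51 measured 9.31 and 9.42 in control, 9.57 and 9.50 under GCSF and 9.56 and 9.48 under LIF/PD. Control was the lowest group, with no overlap, while the treated groups overlapped each other. The GCSF difference of 0.17 ± 0.06 did not pass (adjusted p = 0.275). Sqle, for the epoxidase that commits squalene to sterols, measured 10.80 and 10.87 in control, 10.89 and 10.84 under GCSF and 10.90 and 10.86 under LIF/PD. These groups overlapped, with a GCSF difference of 0.03 ± 0.04. For Fdft1, the squalene synthase gene, and Lss, which encodes the enzyme that forms lanosterol, the 3 features lay within 0.04 of control. The late enzyme genes Tm7sf2, Nsdhl, Ebp and Dhcr7 lay slightly below control and Hsd17b7 and Sc5d slightly above, all within 0.06 of it. Apart from Msmo1 and Cyp51, the intervals of this branch under GCSF reached from -0.19 to 0.19.

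No regulator passed under GCSF. Insig1, which is itself a sterol-responsive gene, measured 11.19 and 11.06 in control, 11.27 and 11.24 under GCSF and 11.18 and 11.17 under LIF/PD. Both GCSF arrays were above the rest, by 0.13 ± 0.04 over control (adjusted p = 0.296). Its paralog Insig2 measured 9.25 and 9.25 in control, 9.37 and 9.25 under GCSF and 9.31 and 9.26 under LIF/PD, with only 1 GCSF array clearly above (0.06 ± 0.05). Srebf1 measured 9.36 and 9.39 in control, 9.34 and 9.37 under GCSF and 9.30 and 9.35 under LIF/PD. Srebf2, for the factor most tied to cholesterol genes, measured 10.40 and 10.38, then 10.35 and 10.37, then 10.37 and 10.35. Neither passed, with GCSF differences of -0.02 ± 0.04 and -0.03 ± 0.04 and interval bounds from -0.12 to 0.08 for Srebf1 and -0.11 to 0.05 for Srebf2. Scap differed by -0.04 ± 0.04, and Stard4, for a protein that carries sterol between membranes, by 0.11 ± 0.08.

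Fatty acid genes lay close to control under GCSF. Acly, for the lyase that supplies cytosolic acetyl-CoA, measured 11.47 and 11.49 in control, 11.51 and 11.50 under GCSF and 11.48 and 11.48 under LIF/PD. Fasn, the fatty acid synthase gene, measured 11.73 and 11.73, 11.76 and 11.78, and 11.74 and 11.73 in the same order. In both genes the GCSF arrays were the highest, by only 0.03 ± 0.03 over control. Acaca, for the carboxylase that makes malonyl-CoA, gave different answers on its features. Feature 10394538 measured 9.97 and 10.00 in control, 10.09 and 10.08 under GCSF and 10.03 and 10.06 under LIF/PD, a GCSF difference of 0.10 ± 0.04 (adjusted p = 0.354). Feature 10379820 measured 9.68 and 9.60, 9.66 and 9.65, and 9.55 and 9.56, a GCSF difference of 0.02 ± 0.04.

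The desaturase genes Scd1 and Scd2, which put the double bond into stearate and palmitate, were also near control. Scd1 measured 11.12 and 11.20 in control, 11.26 and 11.12 under GCSF and 11.26 and 11.30 under LIF/PD, with GCSF on both sides of control (0.03 ± 0.05). Scd2 measured 12.28 and 12.31, 12.36 and 12.32, and 12.29 and 12.32 in that order, 0.05 ± 0.03 above control under GCSF. Elovl6, a fatty acid elongase gene, differed by 0.00 ± 0.04. Lpin1, for the phosphatidate phosphatase of glycerolipid synthesis, measured 9.00 and 8.92 in control, 8.83 and 8.90 under GCSF and 8.96 and 8.95 under LIF/PD. Its GCSF arrays were the lowest of the 6 (-0.09 ± 0.05, adjusted p = 0.523). The intervals of all 8 features of this group stayed under a 1.2-fold difference from control in either direction.

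**Figure D3:**
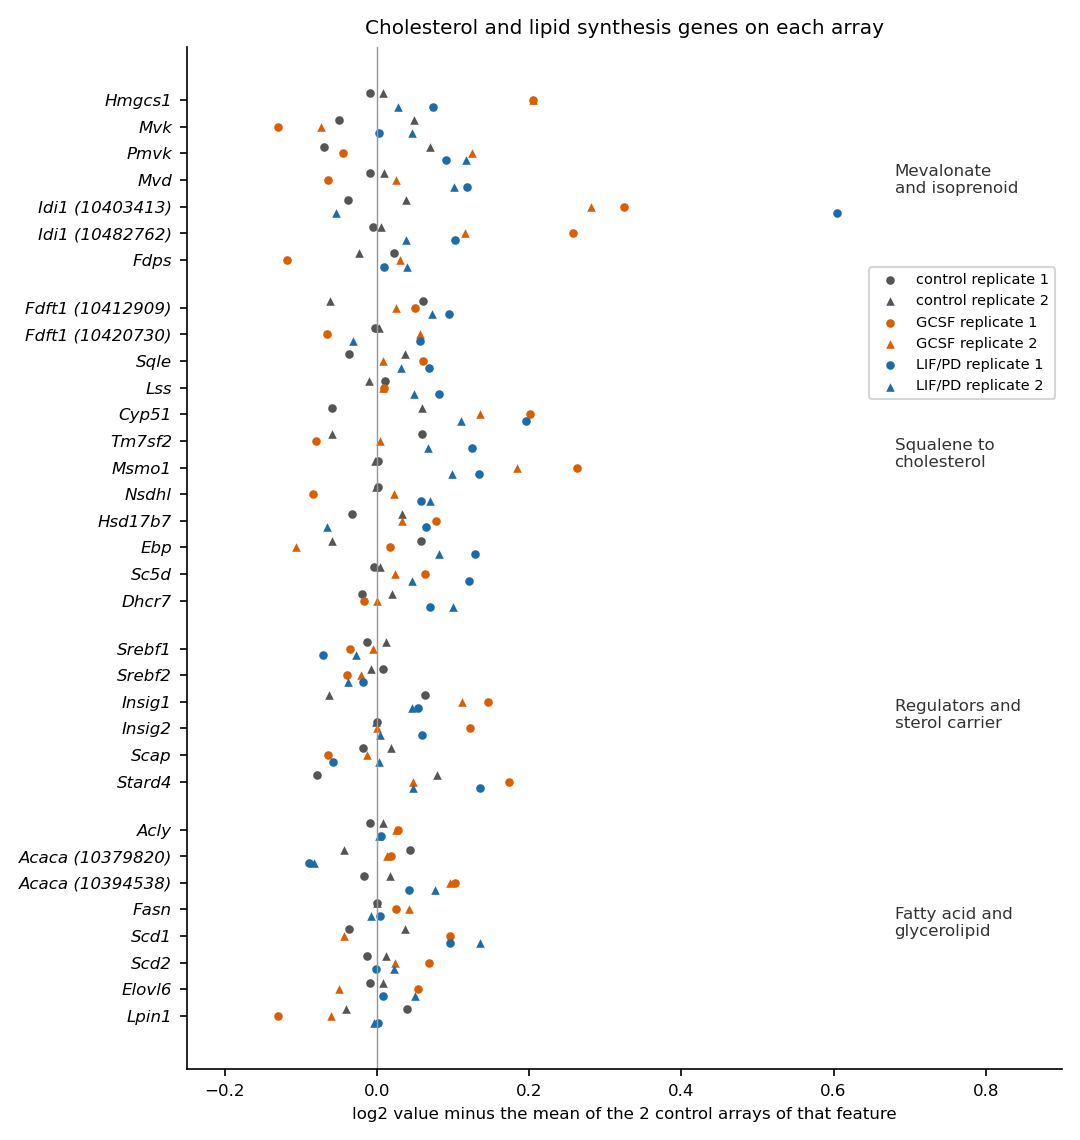
Points give the log2 value on each of 6 arrays minus the mean of the 2 control arrays, for the 33 features of the members, with feature identifiers where a gene has 2. Most points lie within 0.1 of control, the GCSF points of Hmgcs1, Idi1, Msmo1 and Cyp51 lie to the right, and many LIF/PD points of the sterol enzymes lie just right of control.

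The comparison of LIF/PD with control asks which of the same genes differ from control in the arrays labelled LIF/PD. No member rose or fell by limma, against 0.0591% of all features that rose and 0.00591% that fell. At an unadjusted p under 0.05 there were 2 member features, or 6.06%, against 6.59% of all features. These were Msmo1 (0.12 ± 0.04, adjusted p = 0.705) and Cyp51 (0.15 ± 0.06, adjusted p = 0.719). Intervals of 29 of the 33 features stayed within a 1.2-fold difference.

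Small differences above control were common among the members. Both LIF/PD arrays were above both control arrays for 17 of 33 member features, or 51.5%, against 24% of all features, and below them for 3, or 9.09%, against 14.4%. By role, this held for 9 of 12 features of the steps from squalene to cholesterol, 4 of 7 of the mevalonate and isoprenoid steps, 3 of 8 of the fatty acid group and 1 of 6 of the regulators. In the squalene to cholesterol steps 10 of 11 genes had differences above 0, with a median of 0.08, and in the mevalonate steps 6 of 6, with a median of 0.06. Over all members 24 of 30 genes, or 80%, lay above 0, with a median of 0.05. All 12949 tested genes had 61.0% above 0 and a median of 0.02. The members were of higher intensity, with array medians of 9.80 to 10.03 against 8.60 to 8.65 for all tested features. The share of all genes above 0 rose with the filter, from 54.2% with no filter to 65.6% at the 60th percentile. At the 60th percentile 22 of 28 member genes lay above 0. After quantile normalization 12 member features lay fully above control and 3 below, against 21.2% and 16.4% of all features, and 24 of 30 genes were above 0, against 56.2% of all genes. After median centring of each array 18 features lay above and 2 below, against 26.3% and 12.3%, and 27 genes were above 0, against 65.2%. No test was made of the list as a whole, and no single gene passed.

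Among the sterol enzymes, Dhcr7, the last reductase before cholesterol, measured 9.11 and 9.15 in control and 9.20 and 9.23 under LIF/PD, a difference of 0.08 ± 0.04. Ebp, for the sterol isomerase, measured 9.38 and 9.26 against 9.45 and 9.40, and Mvd 8.99 and 9.01 against 9.11 and 9.10. Both groups of Ebp and of Mvd were apart, by 0.11 ± 0.06 and 0.11 ± 0.05, neither of which passed (adjusted p = 0.805 and 0.755). Lss (0.07 ± 0.04), Nsdhl (0.06 ± 0.04), Sc5d (0.08 ± 0.05) and Tm7sf2 (0.10 ± 0.07) also had both LIF/PD arrays above control. Hsd17b7 and Sqle (0.05 ± 0.04) overlapped with control. Hmgcs1 was 0.05 ± 0.03 above control, with an interval from -0.03 to 0.13. Mvk and Fdps lay 0.03 ± 0.05 and 0.02 ± 0.05 above it, and Pmvk 0.10 ± 0.08. Idi1 feature 10403413 was 0.28 ± 0.17 above control (adjusted p = 0.815), with its arrays on both sides of control, and its sign turned without LIF/PD replicate 1. Idi1 feature 10482762 was 0.07 ± 0.05 above.

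No regulator passed under LIF/PD either. Srebf1 (-0.05 ± 0.04) and Srebf2 (-0.03 ± 0.04) had both LIF/PD arrays below control, and Insig1 lay 0.05 ± 0.04 above with overlapping arrays. Insig2 and Scap differed by 0.03 ± 0.05 and -0.03 ± 0.04, and Stard4 by 0.09 ± 0.08. Of the fatty acid genes, Scd1 stood highest at 0.12 ± 0.05 (adjusted p = 0.752), both LIF/PD arrays being above control. Fasn, Acly, Scd2, Elovl6 and Lpin1 lay within 0.03 of control. The features of Acaca pointed in opposite directions, at 0.06 ± 0.04 and -0.09 ± 0.04.

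**Figure D4:**
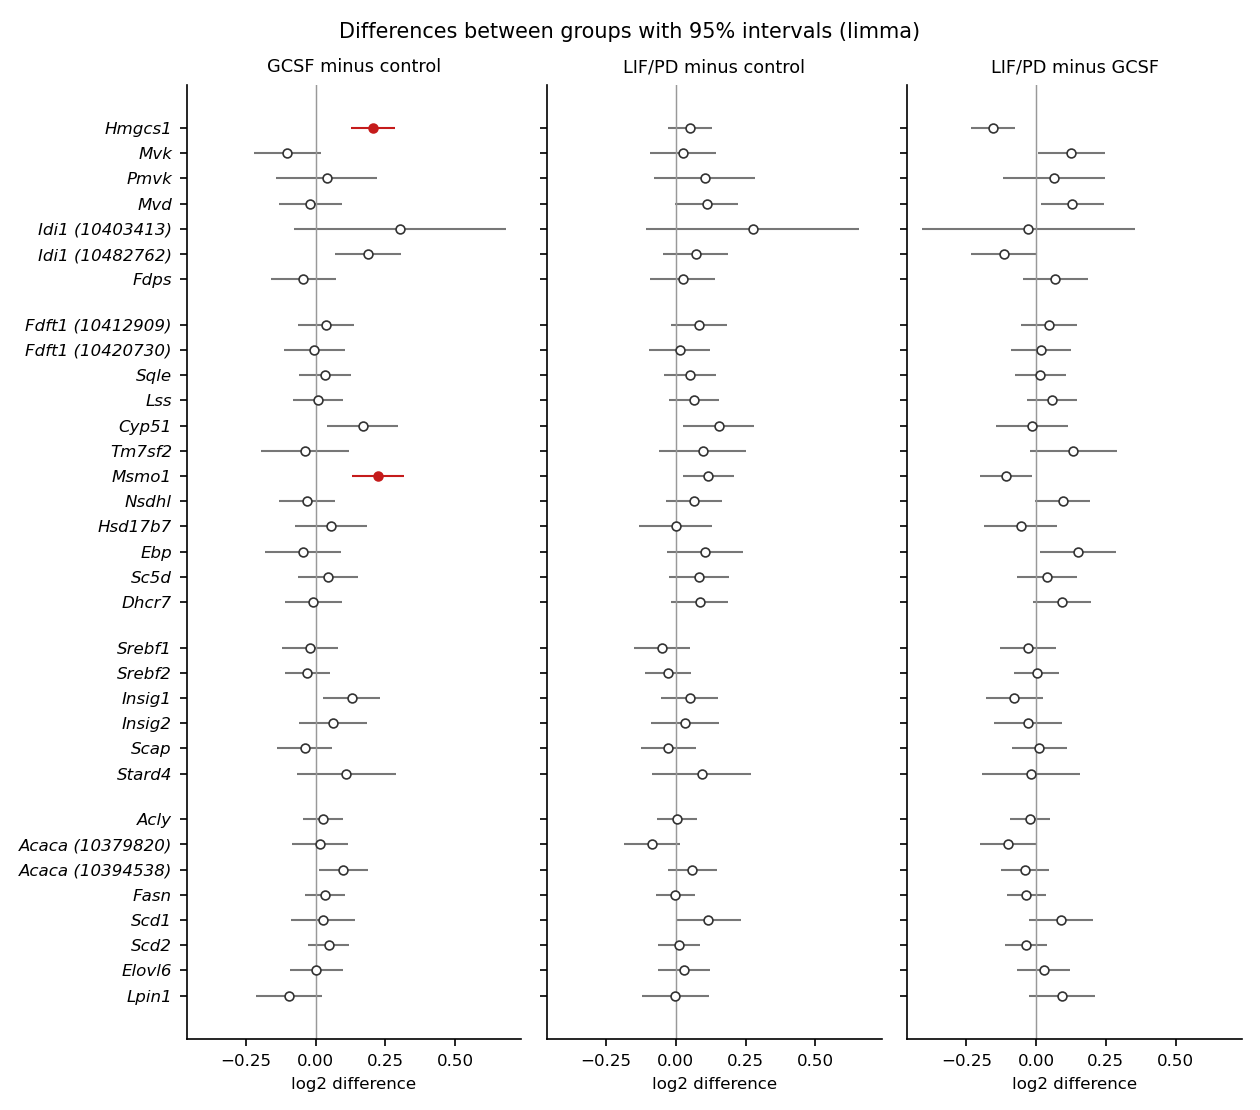
The 3 panels plot the log2 difference of each member feature for GCSF minus control, LIF/PD minus control and LIF/PD minus GCSF, with horizontal bars for 95% intervals from limma. Filled red points are the 2 features with an adjusted p under 0.05, Hmgcs1 and Msmo1 under GCSF, and open points all others.

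Both comparisons above use the same control arrays, so the treatments were also compared with each other. Between LIF/PD and GCSF no member differed by limma, against 0.402% of all features higher and 0.443% lower under LIF/PD. At an unadjusted p under 0.05 there were 6 member features, or 18.2%, against 11.8% of all. For 9 of 33 features, or 27.3%, both LIF/PD arrays were above both GCSF arrays, against 22.4% of all, and for 9 they were below, against 19.1%. The median over the 30 genes was 0.01, against 0.01 over all tested genes.

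Hmgcs1 had the lowest p of the members here. It was lower under LIF/PD (-0.15 ± 0.03, interval -0.23 to -0.08), but the difference between the treatments did not pass (adjusted p = 0.111). Msmo1 followed on the same side (-0.11 ± 0.04, adjusted p = 0.349), with Idi1 feature 10482762 (-0.12 ± 0.05, adjusted p = 0.426) and Insig1 (-0.08 ± 0.04, adjusted p = 0.553). In these 4 features both GCSF arrays were the higher. The other side held Ebp (0.15 ± 0.06, adjusted p = 0.380), Mvd (0.13 ± 0.05, adjusted p = 0.361), Mvk (0.13 ± 0.05, adjusted p = 0.396), Tm7sf2 (0.13 ± 0.07), Nsdhl (0.09 ± 0.04), Dhcr7 (0.09 ± 0.04), Lpin1 (0.09 ± 0.05), Lss (0.06 ± 0.04) and Fdft1 feature 10412909 (0.05 ± 0.04), all with both LIF/PD arrays the higher. Thus Hmgcs1 and Mvk, which act in the same branch, lay on opposite sides, though neither passed. That Hmgcs1 and Msmo1 rose under GCSF and not under LIF/PD is not shown to be a difference between the treatments.

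Of the fatty acid features, 5 of 8, or 62.5%, were higher under GCSF without overlap, against 19.1% of all features. Only 1, Lpin1, or 12.5%, was higher under LIF/PD, against 22.4%. The 5 include Acaca feature 10394538, whose identifier ran among those of chromosome 12. Acly, Fasn, Scd2 and both Acaca features had both LIF/PD arrays below both GCSF arrays, with differences from -0.10 to -0.02, and none passed. Srebf1, Srebf2, Insig2, Scap and Stard4 overlapped between the treatments, with differences from -0.03 to 0.01.

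Around the members, 5 further lists of 68 genes held 56 that were tested, and none of the 56 rose or fell in any of the 3 comparisons by limma. At an unadjusted p under 0.05 there were 4 for GCSF, or 7.14% against 12.1% of all features, and 4 for LIF/PD, or 7.14% against 6.59%. Between the treatments there were 3, or 5.36% against 11.8%. The shares of the lists count 1 feature per gene, while those of all features count every tested feature, so the units differ. Of 8 genes of the isoprenoid branches and the last sterol steps, the farnesyltransferase subunit gene Fntb had the lowest p under GCSF (-0.13 ± 0.05, adjusted p = 0.354), and Fnta, for the partner subunit, under LIF/PD (0.07, adjusted p = 0.832). The list's median was 0.06 for GCSF and 0.03 for LIF/PD. Of 9 genes for SREBP cleavage and for the breakdown of sterol-regulated proteins, the ubiquitin ligase gene Rnf145 was first under GCSF (0.07, adjusted p = 0.622) and the protease gene Mbtps1 under LIF/PD (-0.04, adjusted p = 0.864), with medians of 0.01 and -0.01. Of 11 genes for sterol transport and storage, Npc1, whose protein exports cholesterol from lysosomes, was first under GCSF (0.10 ± 0.04, adjusted p = 0.338) and Lipa, the lysosomal lipase gene, under LIF/PD (0.11 ± 0.04, adjusted p = 0.719). Both medians were 0.02.

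Of 21 further genes for fatty acid and glycerolipid synthesis, Me1, for the malic enzyme that supplies NADPH, was first in both, at 0.13 ± 0.04 under GCSF (adjusted p = 0.275) and 0.13 ± 0.04 under LIF/PD (adjusted p = 0.704). Their medians were -0.01 and 0.03. Of 7 genes for fatty acid oxidation, Acadm was first under GCSF (0.09, adjusted p = 0.413) and Hadhb under LIF/PD (0.10, adjusted p = 0.796), with medians of -0.05 and 0.01. Between the treatments the first genes were Fntb (0.10), Rnf145 (-0.07), Scarb1 (0.15), Fads3 (0.14) and Cpt2 (0.08), with adjusted p from 0.391 to 0.589.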

How the data were processed

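Total RNA of 6 samples was labelled with biotin at a core facility, per the labels' protocols, and the deposited values were read as log2 intensity from their range of 2.29 to 14.5. The log base, background correction and normalization are not given in the sources used here, and the values were used as deposited. Precision is limited by the small number of arrays, 2 per group.

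Features were named through the platform annotation. A control block of 6573 features was left out, as were features with a mean under the 40th percentile of the rest (6.70), which left 16912. With limma 3.58.1 in R 4.3.3, a model with 1 mean for each group took in the 6 arrays, with an intensity trend in the variances (3 residual and 8.40 total degrees of freedom), two-sided p-values were adjusted by Benjamini-Hochberg over the 16912 features, and 0.05 was the threshold. The fit was tested on simulated data with changes of 1.2-fold or more, which does not cover the smaller rises of Hmgcs1 and Msmo1. Counts and medians over genes use the feature with the highest mean per gene. For Idi1 and Acaca these were 10482762 and 10394538, the features whose identifiers ran among those of another chromosome. With the features of a gene averaged, 19 of 30 members lay above 0 for GCSF, against 53.6% of all genes. For LIF/PD there were 23, against 58.3%, and between the treatments 17, against 52.3%.

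The members and lists were chosen with earlier results of these data known. All members are described, and all 6 values are printed for called ones, the one with the lowest p in each comparison and 14 fixed ones. Values of Dhcr7, Ebp, Mvk, Mvd and Cyp51 were added after they were seen. Of each other list the gene with the lowest p is named where none was called.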

Additional observations from a re-analysis of the deposited data

How the results depend on the processing

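Every size of Hmgcs1 and Msmo1 under GCSF kept its direction, but the number of member features called under GCSF (2) was not stable. It was 1 with only the 4 arrays of the comparison fitted, where the feature was Idi1, and 0 with no filter on low values, with median centring, with no intensity trend and with the control block median as a covariate, an alternative chosen after seeing the data. It was 0 to 1 when 1 array was left out. No alternative called a member in the other comparisons. Of 849 alternative values of the 51 member values followed, 826 kept their side of the threshold. Another 21 lost a call, 2 gained one and 0 reversed a call, while 31 uncalled values changed sign. Only 2 of the 51, Hmgcs1 and Msmo1 under GCSF, were called, so the others had no call to lose. All 21 lost calls were of these 2.

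Features called over the whole array under GCSF (198) became 125 with no trend and 99 with the covariate, and 88 to 164 with 1 array left out. Under LIF/PD (11) they became 1 with no trend and 1 to 7 with 1 array left out. Between the treatments (143) they became 82 with only 4 arrays, 71 with no trend, 26 with the covariate and 30 to 91 with 1 array left out. The members' median between the treatments then ran from -0.0055 to 0.026, the lowest without LIF/PD replicate 1. Member features with no overlap then numbered 14 to 27 for GCSF, 20 to 27 for LIF/PD and 18 to 28 between the treatments. Here 1 array separates more easily than 2. Without GCSF replicate 2, 17 of 33 lay higher and 10 lower for GCSF, against 40.2% and 34.7% of all features. Between the treatments 14 lay higher and 14 lower there, against 39.2% and 35.1%. For LIF/PD the counts were 23 and 4 without LIF/PD replicate 2, against 42.2% and 29.6%. Without control replicate 2 they were 22 and 5, against 43.7% and 27.4%. Other causes were not tested.

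Deviations of same-numbered arrays correlated at 0.01 to 0.10, so no large effect shared by replicate number was seen. Whether same-numbered samples were made together is not stated, and these values cannot settle it. With the replicate number as a block, 195, 9 and 165 features were called in the 3 comparisons, and 2 members under GCSF. With 2 arrays a group, a left-out array leaves 1, whose spread is assumed to be that of the other groups. Differences under about 0.10 are within most intervals here.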

Other observations

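The GCSF replicates lay apart in the mevalonate and isoprenoid genes, and less so in the other parts of the pathway. Relative to the control mean, the 6 mevalonate and isoprenoid genes had a median of -0.05 on GCSF replicate 1 and 0.07 on GCSF replicate 2, while the 7 fatty acid genes had 0.05 and 0.02. The 11 genes from squalene to cholesterol had medians of 0.02 and 0.02 on the GCSF arrays and of 0.08 and 0.07 on the LIF/PD arrays, where all 12949 tested genes had 0.02 and 0.01. GCSF replicate 1 also had the highest median of the control block, 6.84 against 6.58 to 6.71 on the other 5 arrays. The part of this in the values was not tested.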
